A study of Rattus norvegicus with 24 samples.

Results

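Hepatic transcripts that rose or fell with a score of circadian clock phase were selected among 23186 transcripts measured in the livers of 24 male Zucker rats. The score of each rat was the log2 signal of Nr1d1 minus the log2 signal of Arntl, each represented by its single probe set. Every other transcript was regressed on that score with the 4 groups as fixed terms. A transcript was kept if its slope passed an adjusted p of 0.05 (limma, Benjamini-Hochberg over all 23186 transcripts), which left 244 transcripts, 1.05% of those tested. Of these, 125 (0.539%) rose with the score and 119 (0.513%) fell with it. The transcripts were thus selected on their slopes, which are given below with their standard errors as a description. One unit of score is a 2-fold change in the ratio of Nr1d1 to Arntl signal, and a slope gives the change in log2 signal per unit of score.

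The rats were 25 weeks old when the diets were started, and the livers were taken after some weeks of feeding. Housing was in pairs under 12 h of light per day. Obese rats carried the leptin receptor mutation fa in both copies (fa/fa) and lean rats in 1 copy (fa/+), so that no rat was free of the allele. Ecdysterone, a steroid hormone of insects and plants, was fed at 0.5 g per kg of a basal diet to groups OE (obese) and LE (lean), whereas groups OC (obese) and LC (lean) received the basal diet alone. Each group had 8 rats, of which 6 were put on Affymetrix Clariom S arrays, with 1 array per rat. The time of day at which each rat was killed is not given in the sources used here, and which rats shared a cage is not given either. The score therefore could not be tied to clock time. On the log2 scale of the signals, 1523 receptors for smell, taste and pheromones, which liver is not known to use, had a median mean signal of 4.83 as a measure of background. Every array correlated with the others of its group at a mean r of 0.983 to 0.988. The 9 hepatocyte markers checked (among them Alb, Apob and Hnf4a) averaged 18.21 to 18.55 in every rat, and none of them was among the 244 transcripts.

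The circadian clock is a feedback loop of transcription factors that runs in nearly every cell of the body. Arntl (BMAL1) pairs with Clock or Npas2, binds E-box sequences and switches on the Per, Cry, Nr1d1 and Nr1d2 genes, and PER and CRY proteins then block this pair. The REV-ERB receptors encoded by Nr1d1 and Nr1d2 repress Arntl, while ROR receptors activate it through the same DNA element, so that Nr1d1 and Arntl messages peak at about opposite times of day. In liver the clock also drives the PAR bZIP factors Dbp, Tef and Hlf, which act through D-boxes and are opposed by Nfil3, and the rhythm of many genes of lipid, glucose and drug metabolism.

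Promoters of the RefSeq annotation (GRCr8, 300 bases from 250 before to 50 after the gene start) were matched to 184 of the 238 genes whose brightest probe set was selected. Motifs were searched on both strands, with E-box CACGTG, REV-ERB and ROR element TAGGTCA and D-box TTATGTAA. An E-box was found in 12 of 100 promoters of rising genes (12.0%) and in 7 of 84 promoters of falling genes (8.33%), against 7.9% of the 15502 promoters of all measured genes and 6.65% of the 27457 promoters in the annotation table. The REV-ERB and ROR element was found in 2.0% and 2.38% of the rising and falling sets, against 2.03% of measured genes and 2.6% of all promoters. A D-box was found in 3 rising (3.0%) and 2 falling promoters (2.38%), against 0.69% of measured genes and 0.881% of all promoters. Such a match is a description of the letters in this window and says nothing of binding. To show the motifs in place, 4 promoters that hold a match are printed, that of Arntl, part of the score itself, with its REV-ERB and ROR element, and those of 3 rising genes, which are the repressor gene Ciart with 3 E-boxes, Tef with 1 E-box, and Por with a REV-ERB and ROR element read on the opposite strand. They were picked for their matches, and none of the 3 motifs was found in the promoters of Dbp, Nr1d2, Per3, Per1, Npas2, Clock, Rora and Nfil3. Capitals mark the motif in each, no 2 of these matches overlap, and sequences run 5′ to 3′ along the gene.
Arntl, named Bmal1 by RefSeq (chr1:176766078-176766377, plus strand): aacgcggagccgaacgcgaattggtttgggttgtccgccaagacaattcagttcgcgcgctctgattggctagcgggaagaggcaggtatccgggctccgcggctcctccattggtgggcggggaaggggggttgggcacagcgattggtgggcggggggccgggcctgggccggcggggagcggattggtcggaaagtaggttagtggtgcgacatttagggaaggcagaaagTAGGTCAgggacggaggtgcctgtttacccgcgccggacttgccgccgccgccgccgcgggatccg
Ciart (chr2:186112197-186112496, minus strand): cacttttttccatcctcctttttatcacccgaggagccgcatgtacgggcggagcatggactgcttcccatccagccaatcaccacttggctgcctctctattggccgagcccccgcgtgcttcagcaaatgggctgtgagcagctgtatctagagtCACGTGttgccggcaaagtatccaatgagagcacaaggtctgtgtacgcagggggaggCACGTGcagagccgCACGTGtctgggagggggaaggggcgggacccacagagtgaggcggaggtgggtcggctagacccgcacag
Tef (chr7:115206577-115206876, plus strand): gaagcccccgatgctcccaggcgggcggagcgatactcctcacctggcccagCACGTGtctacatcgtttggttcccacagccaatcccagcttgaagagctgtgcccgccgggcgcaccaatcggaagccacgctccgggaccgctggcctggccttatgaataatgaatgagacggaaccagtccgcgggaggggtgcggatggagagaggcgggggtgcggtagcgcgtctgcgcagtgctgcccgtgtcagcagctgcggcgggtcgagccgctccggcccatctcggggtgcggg
Por (chr12:26635760-26636059, minus strand): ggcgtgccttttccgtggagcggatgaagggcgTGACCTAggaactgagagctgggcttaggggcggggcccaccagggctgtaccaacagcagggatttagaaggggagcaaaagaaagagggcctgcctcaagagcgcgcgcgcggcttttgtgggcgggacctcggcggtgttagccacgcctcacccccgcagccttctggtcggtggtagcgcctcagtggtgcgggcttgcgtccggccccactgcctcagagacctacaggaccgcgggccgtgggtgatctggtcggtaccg

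The score spanned 12.74 units over the 24 rats. It was 2.77 to 8.49 in OE (median 6.03), 1.73 to 7.12 in OC (median 4.85), −2.47 to 6.49 in LE (median 3.63) and −3.38 to 9.36 in LC (median 5.30). Rats LE 11 and 12 and LC 1 and 2 stood apart, with scores of −2.47, −2.31, −1.84 (LC 1) and −3.38 (LC 2), whereas the lowest of the other 20 rats was at 1.73. In these 4 lean rats Nr1d1 was at 7.21 to 8.51 and Arntl at 10.22 to 10.59, against 11.53 to 15.30 and 5.93 to 9.79 in the other 20. No obese rat had a score below 0, so the low end of the scale was sampled in lean rats alone. Group means were 5.82 ± 2.24 in OE, 4.39 ± 1.94 in OC, 2.39 ± 3.86 in LE and 3.70 ± 5.17 in LC (SD, n = 6 each). The differences of 0.69 for OC minus LC (exact permutation p = 0.760), −1.31 for LE minus LC (exact permutation p = 0.597) and 1.43 for OE minus OC (exact permutation p = 0.258) were within the spread between rats. These tests were two-sided over 924 splits of 12 rats, the smallest p they allow is 0.00216, and adjusted over the 3 tests each p was 0.760. They treat each rat as a single unit, although rats were kept in pairs and neighbouring array numbers had like scores.

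**Figure D1:**
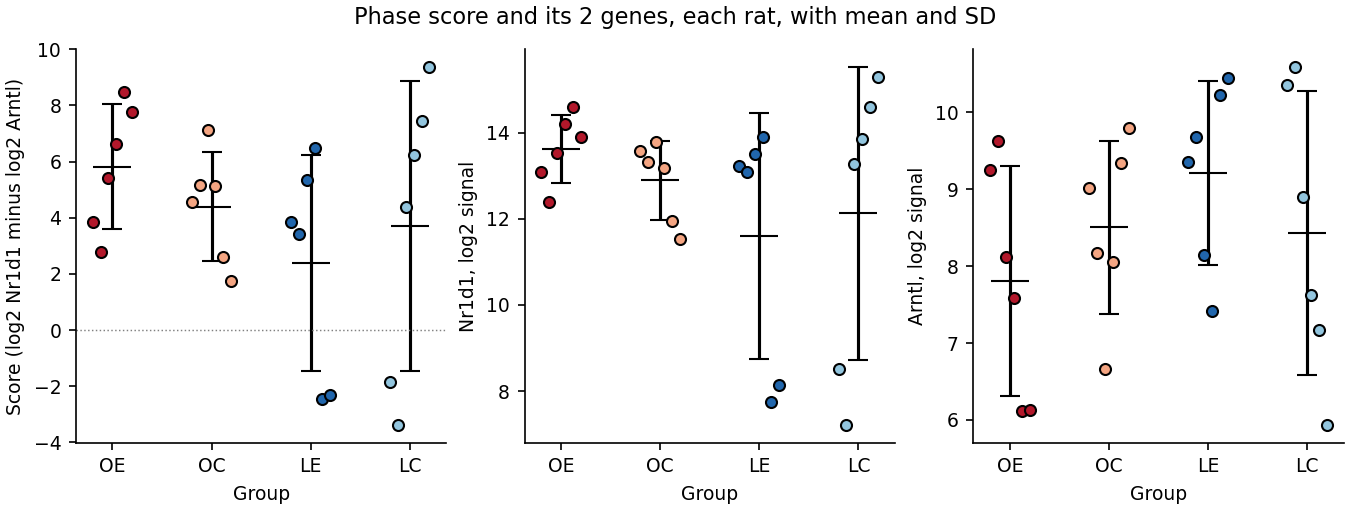
Score (log2 Nr1d1 minus log2 Arntl, left) and the log2 signals of Nr1d1 (middle) and Arntl (right) by group, with 1 point per rat and black bars for mean ± SD (n = 6). Rats LE 11 and 12 and LC 1 and 2 lie below a score of 0 with Nr1d1 at 7.21 to 8.51, whereas all obese rats lie between 1.73 and 8.49.

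With the selection repeated on the 20 rats with scores above 0, 74 transcripts passed (0.319% of those tested), of which 49 were among the 244. All 244 had a slope of the same sign in those 20 rats, which also took part in the first selection, and 156 of the 244 slopes were steeper there. Of 49 selected transcripts that were followed by name, 23 no longer passed without those 4 rats. They were the clock genes Cry1, Nfil3, Rora, Clock and Ciart, the rising genes Sdr42e1, Mt1a, Ccnd1, Slc2a5, Cpt1a, Ppara, Slc2a2 and Cdh2, and the falling genes Insig1, Rnf125, Etv6, Pdk4, Fkbp4, Cdkn1a, Sgk1, Ces1d, Pgk1 and Mdh1. Coq10b, named below but not counted in the 49, did not pass without the 4 rats either (adjusted p = 0.0906, limma). In obese rats alone 31 of the 49 did not pass, and in lean rats alone 13. Clock, Ciart, Cpt1a, Gys2, Sgk1, Ces1d, Cdh2 and Mdh1 passed in neither genotype alone. Slopes of the same sign in each of the 4 groups taken alone were found for 214 of the 244 transcripts, 28 had it in 3 groups, and Rybp and Tbc1d24 had it in the lean groups only. The slope used for the selection is made up of these group slopes, so like signs were largely set by the selection. The score took up 39.6 to 92.2% of the variance within groups of the selected transcripts (median 53.6%), a share that the selection itself set. The absolute slope was 0.05 to 0.66 (median 0.11). A rise of over 0.2 per unit of score was found for 16 transcripts and a fall of over 0.2 for 14. Selected transcripts were mostly bright, with a median mean signal of 10.36 and 231 of 244 above 6.55, the median of all transcripts. Around the threshold, Slc4a4 (slope 0.08 ± 0.02 SE) and Pgap2 (0.06 ± 0.02) lay just inside, and Gpat4 (0.09 ± 0.02) and Nek7 (−0.07 ± 0.02) just outside.

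**Figure D2:**
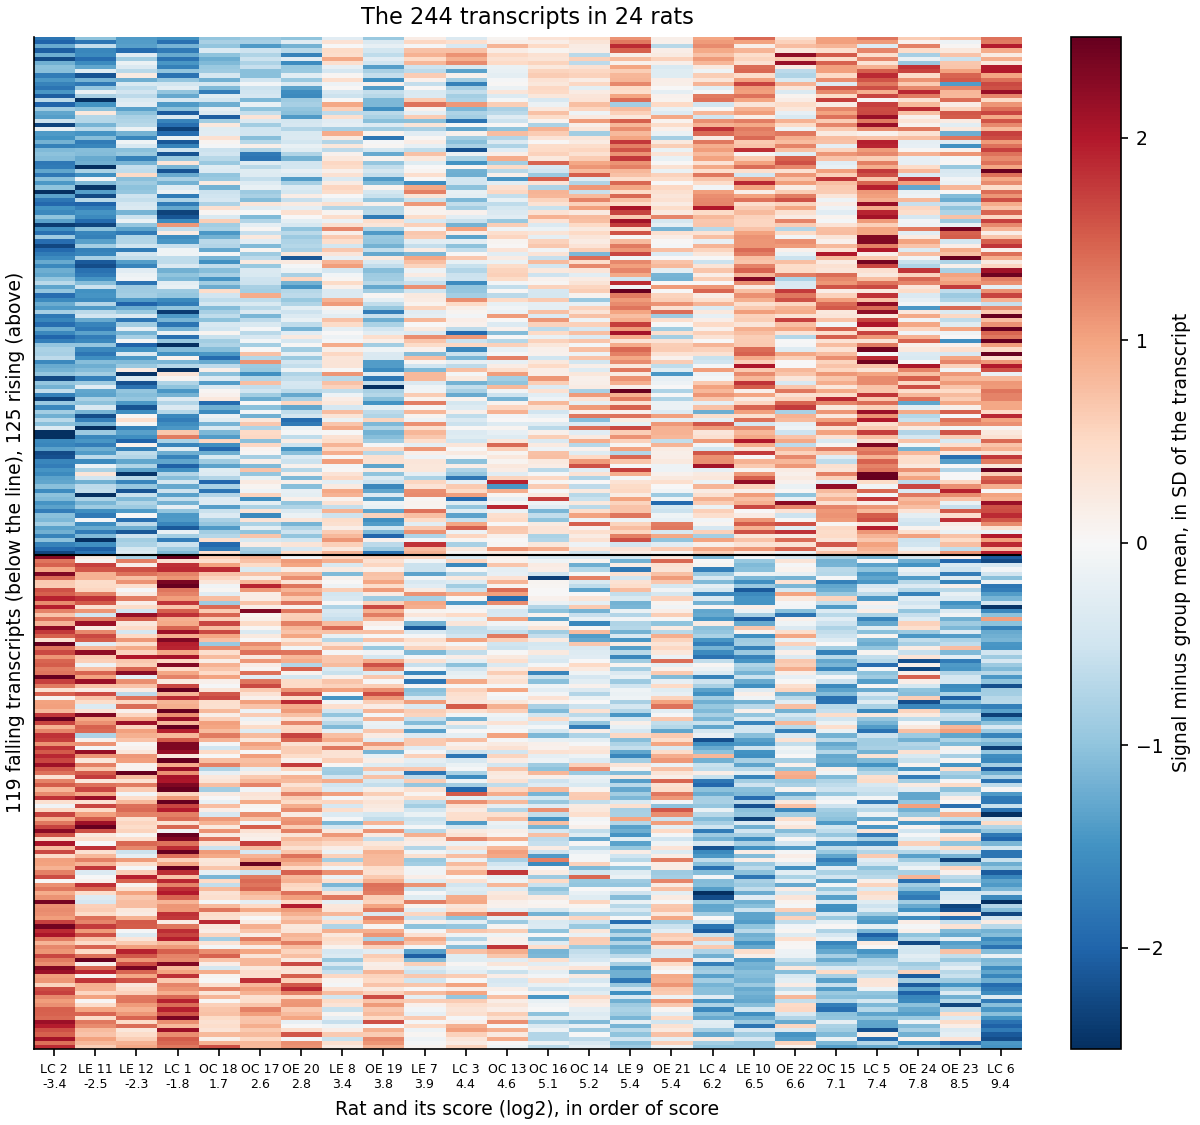
Signals of the 244 selected transcripts (rows, steepest rise at the top and steepest fall at the bottom, with a line between the 125 rising and 119 falling ones) in 24 rats (columns, in order of score, which is printed under each name). Colour gives the signal minus its group mean in SD of the transcript. The upper block turns from blue to red and the lower block from red to blue along the score.

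Among the genes that switch the clock on, 3 of 5 measured fell with the score and none rose (median slope −0.10, against 0.00 over all transcripts). Npas2, which can take the place of Clock as partner of BMAL1, had the steepest fall of these, with a slope of −0.33 ± 0.04 (SE). Its signal was 7.00, 10.08 and 10.83 (lowest, median and highest) in OE, 8.12, 9.44 and 10.60 in OC, 8.82, 10.34 and 11.20 in LE, and 8.01, 9.45 and 11.56 in LC. The 4 lean rats with low scores were the 4 highest, at 11.13 to 11.56, and above a score of 0 the signal still fell, at −0.55 ± 0.06 per unit. Clock itself followed at −0.10 ± 0.02, with 11.33 to 12.69 in the 20 rats with scores above 0 and 12.36 to 12.94 in the 4 below. Rora, which activates Arntl, had a slope of −0.10 ± 0.02 and a range of 9.64 to 11.26. Rorb, at 3.16 to 4.36 below the background level, and Arntl2 (0.03 ± 0.03) were not selected.

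The REV-ERB gene Nr1d2, the closest relative of Nr1d1, rose by 0.38 ± 0.03 per unit of score. It was at 10.92, 12.13 and 12.46 (lowest, median, highest) in OE, 10.70, 11.55 and 11.94 in OC, 8.04, 11.39 and 12.55 in LE, and 8.37, 12.19 and 12.70 in LC. The 4 lean rats lay at 8.04 to 8.74, clear of the other 20 at 10.70 to 12.70, and above a score of 0 the slope was 0.20 ± 0.04.

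Of 12 measured genes of the period, cryptochrome and accessory group, Per3, Per1 and Ciart rose, Cry1 fell and 8 were not selected (median slope 0.02). Per3 had the steepest rise, at 0.31 ± 0.04, with 6.75, 8.31 and 10.53 (lowest, median, highest) in OE, 6.51, 7.67 and 8.84 in OC, 5.32, 6.52 and 8.52 in LE, and 5.44, 7.37 and 9.82 in LC. Per1, which is also induced by glucocorticoids, rose by 0.15 ± 0.03 and lay at 7.10 to 8.25 in the 4 lean rats against 7.59 to 10.45 in the others, so that both ranges overlapped. Ciart, a repressor of the BMAL1 and Clock pair, rose by 0.12 ± 0.03 within 4.93 to 7.06, with its low end near the background level. The core repressor Cry1 fell by 0.16 ± 0.02. The 4 lean rats, at 6.93 to 7.65, lay above the 20 others, at 4.88 to 6.35, and the slope within these 20 was −0.01 ± 0.04. The lowest Cry1 signals of these 20 were near the background level as well. Not selected were Per2 (0.07 ± 0.04) and Cry2 (0.06 ± 0.02), the E-box repressors Bhlhe40 (−0.02 ± 0.03) and Bhlhe41 (0.01 ± 0.02), the kinases Csnk1d (−0.01 ± 0.01) and Csnk1e (0.02 ± 0.02), and the ubiquitin ligase subunits Fbxl21 (−0.03 ± 0.03) and Btrc (−0.01 ± 0.02).

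Dbp, a PAR bZIP activator, had the steepest slope of all transcripts, at 0.66 ± 0.04 or 1.58-fold per unit of score, and the score took up 92.2% of its variance within groups. Its signal was 10.07, 12.97 and 14.11 (lowest, median, highest) in OE, 9.73, 12.43 and 14.29 in OC, 6.79, 9.90 and 13.21 in LE, and 7.01, 11.90 and 14.28 in LC. The 4 low lean rats lay at 6.79 to 7.74 and no other rat was below 9.36. Tef, of the same family, rose by 0.22 ± 0.03 (4.80 to 7.86, with the low end at the background level), while Hlf (0.09 ± 0.03) was not selected. Nfil3, which competes with them for the D-box, fell by 0.18 ± 0.03. Its signal was 11.81 to 12.14 in the 4 lean rats and 9.12 to 11.08 in the other 20, with a slope of −0.13 ± 0.06 within these 20.

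**Figure D3:**
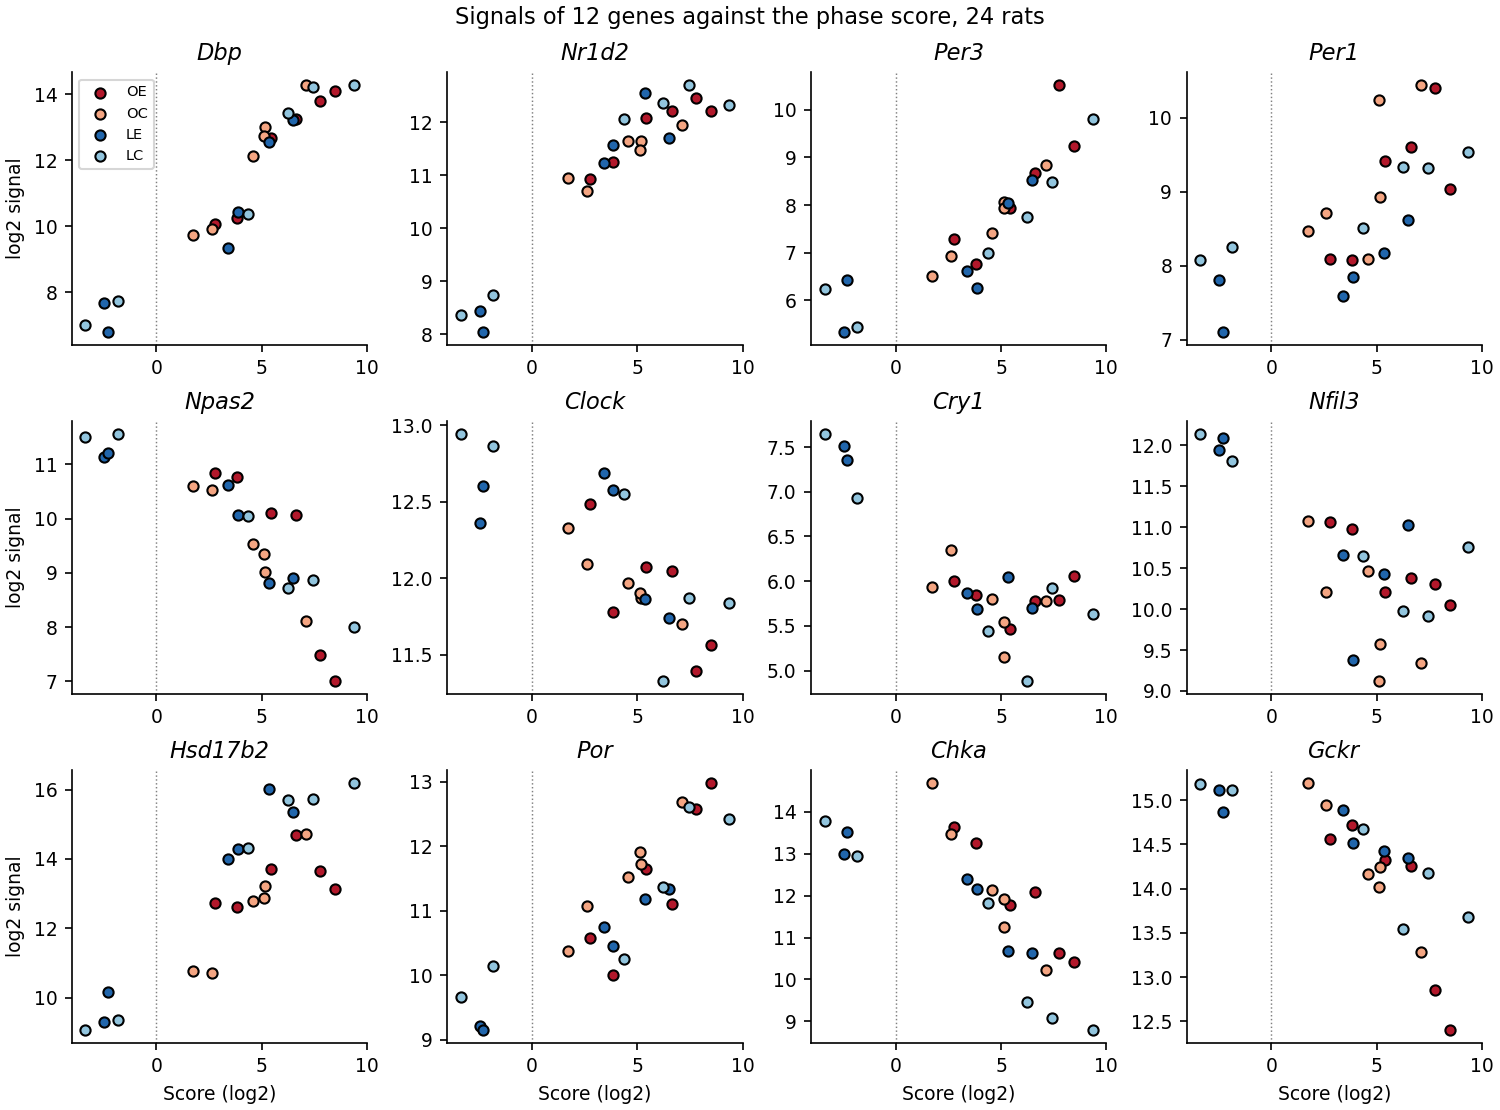
Log2 signals of 12 selected genes (y axes) against the score (log2, x axes) in 24 rats, coloured by group. Dbp, Nr1d2, Per3, Per1, Hsd17b2 and Por are higher at high scores, and Npas2, Clock, Cry1, Nfil3, Chka and Gckr lower, with the 4 lean rats left of the dotted line at 0.

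Of 17 genes that are known to follow the hepatic clock in rodents, 5 rose, 3 fell and 9 were not selected (median slope 0.06). Por, the electron donor of all microsomal cytochromes P450, rose by 0.26 ± 0.03, and was at 10.00, 11.37 and 12.99 (lowest, median, highest) in OE, 10.38, 11.62 and 12.68 in OC, 9.14, 10.60 and 11.34 in LE, and 9.66, 10.81 and 12.61 in LC. All of the 4 low lean rats but LC 1 were below all others, and the slope above a score of 0 was 0.42 ± 0.05. Upp2, which cleaves uridine, rose by 0.38 ± 0.06 and Coq10b, a coenzyme Q binding protein, by 0.16 ± 0.04. The lowest Upp2 signal, 4.47 in OC, was below the background level. The glucose transporter gene Slc2a2 (GLUT2) rose by 0.09 ± 0.01 and liver glycogen synthase, Gys2, by 0.16 ± 0.03. Those that fell were Insig2 (−0.17 ± 0.04), Cdkn1a (−0.16 ± 0.04) and Lonrf3 (−0.13 ± 0.03). Cdkn1a encodes the cell cycle inhibitor p21.

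Outside the clock genes the steepest rise was that of Hsd17b2, an enzyme that inactivates oestradiol and testosterone, with a slope of 0.62 ± 0.04. It lay at 12.62, 13.40 and 14.68 (lowest, median, highest) in OE, 10.73, 12.83 and 14.73 in OC, 9.30, 14.14 and 16.03 in LE, and 9.06, 15.01 and 16.20 in LC. The 4 lean rats with low scores were the lowest, at 9.06 to 10.17, and the next were 2 OC rats. Sdr42e1, a short chain dehydrogenase, rose by 0.33 ± 0.04 but by 0.12 ± 0.07 without those 4 rats. Gcnt2, a glycosyltransferase that branches polylactosamine chains, rose by 0.29 ± 0.05 in 1 probe set and by 0.24 in another. Here the 4 lean rats (6.26 to 6.73) lay within the range of the others (6.01 to 10.65), and the slope above 0 was 0.62 ± 0.07. Cyclin D1, Ccnd1, rose by 0.27 ± 0.04, the only one of 15 cell cycle genes that was selected (median slope of the 15, 0.02).

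Further rising genes were Slc2a5 (0.25 ± 0.06), the fructose transporter GLUT5, Synpo (0.21 ± 0.04), an actin binding protein, Cpt1a (0.19 ± 0.03), which controls the entry of fatty acids into mitochondria, Epm2a (0.18 ± 0.03), the glycogen phosphatase laforin, and Herpud1 (0.17 ± 0.03), a protein of endoplasmic reticulum degradation. Cpt1a was at 14.72 to 16.34 in OE, 14.17 to 15.85 in OC, 13.67 to 16.07 in LE and 12.72 to 15.85 in LC, and the 4 groups overlapped. Mt1a, a zinc binding metallothionein, rose by 0.31 ± 0.07 in the brighter of 2 probe sets and by 0.34 in the other. The array places these on chromosomes 17 and 19 under 1 symbol, and closely related copies cannot be told apart from these signals.

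Chka had the steepest fall of all transcripts, at −0.41 ± 0.04. It encodes choline kinase alpha, the first enzyme of phosphatidylcholine synthesis from choline. Its signal was 10.41, 11.92 and 13.64 (lowest, median, highest) in OE, 10.22, 12.02 and 14.70 in OC, 10.62, 12.28 and 13.52 in LE, and 8.78, 10.64 and 13.78 in LC. The rat with the highest Chka was an OC rat, above the 4 low lean rats (12.94 to 13.78), and among the 20 rats above 0 the slope was −0.65 ± 0.05. Insig1 (−0.31 ± 0.05) and Insig2 (−0.17 ± 0.04), which hold the sterol sensor of SREBP in the endoplasmic reticulum, were the only 2 of 16 genes of bile acid and sterol metabolism that were selected (median slope −0.02). Insig1 ranged from 11.65 to 17.18 in the 20 rats and from 16.48 to 17.46 in the 4 lean rats. Insig2 ranged from 13.05 to 16.70 in the 20 rats and from 16.34 to 16.66 in the 4.

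Other genes with steep falls were Tubb2a (−0.29 ± 0.04), a beta tubulin, Ddhd1 (−0.29 ± 0.04), a phospholipase A1, and Slc6a6 (−0.28 ± 0.035), the taurine transporter. Pnrc1 (−0.23 ± 0.03), a nuclear receptor coactivator, separated the 4 lean rats at 15.47 to 15.86 from the other 20 at 13.02 to 15.18, and Rnf125 (−0.21 ± 0.03), a ubiquitin ligase, did so at 15.11 to 15.70 against 11.89 to 14.79. Clpx (−0.21 ± 0.03), the unfoldase of a mitochondrial protease, Lgalsl (−0.22 ± 0.03), Cldn1 (−0.19 ± 0.04), a tight junction protein, and Etv6 (−0.19 ± 0.03), an ETS family repressor, overlapped between these rats. Slc28a2, a purine nucleoside transporter, fell by 0.18 ± 0.03 in 1 probe set and by 0.21 in another.

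**Figure D4:**
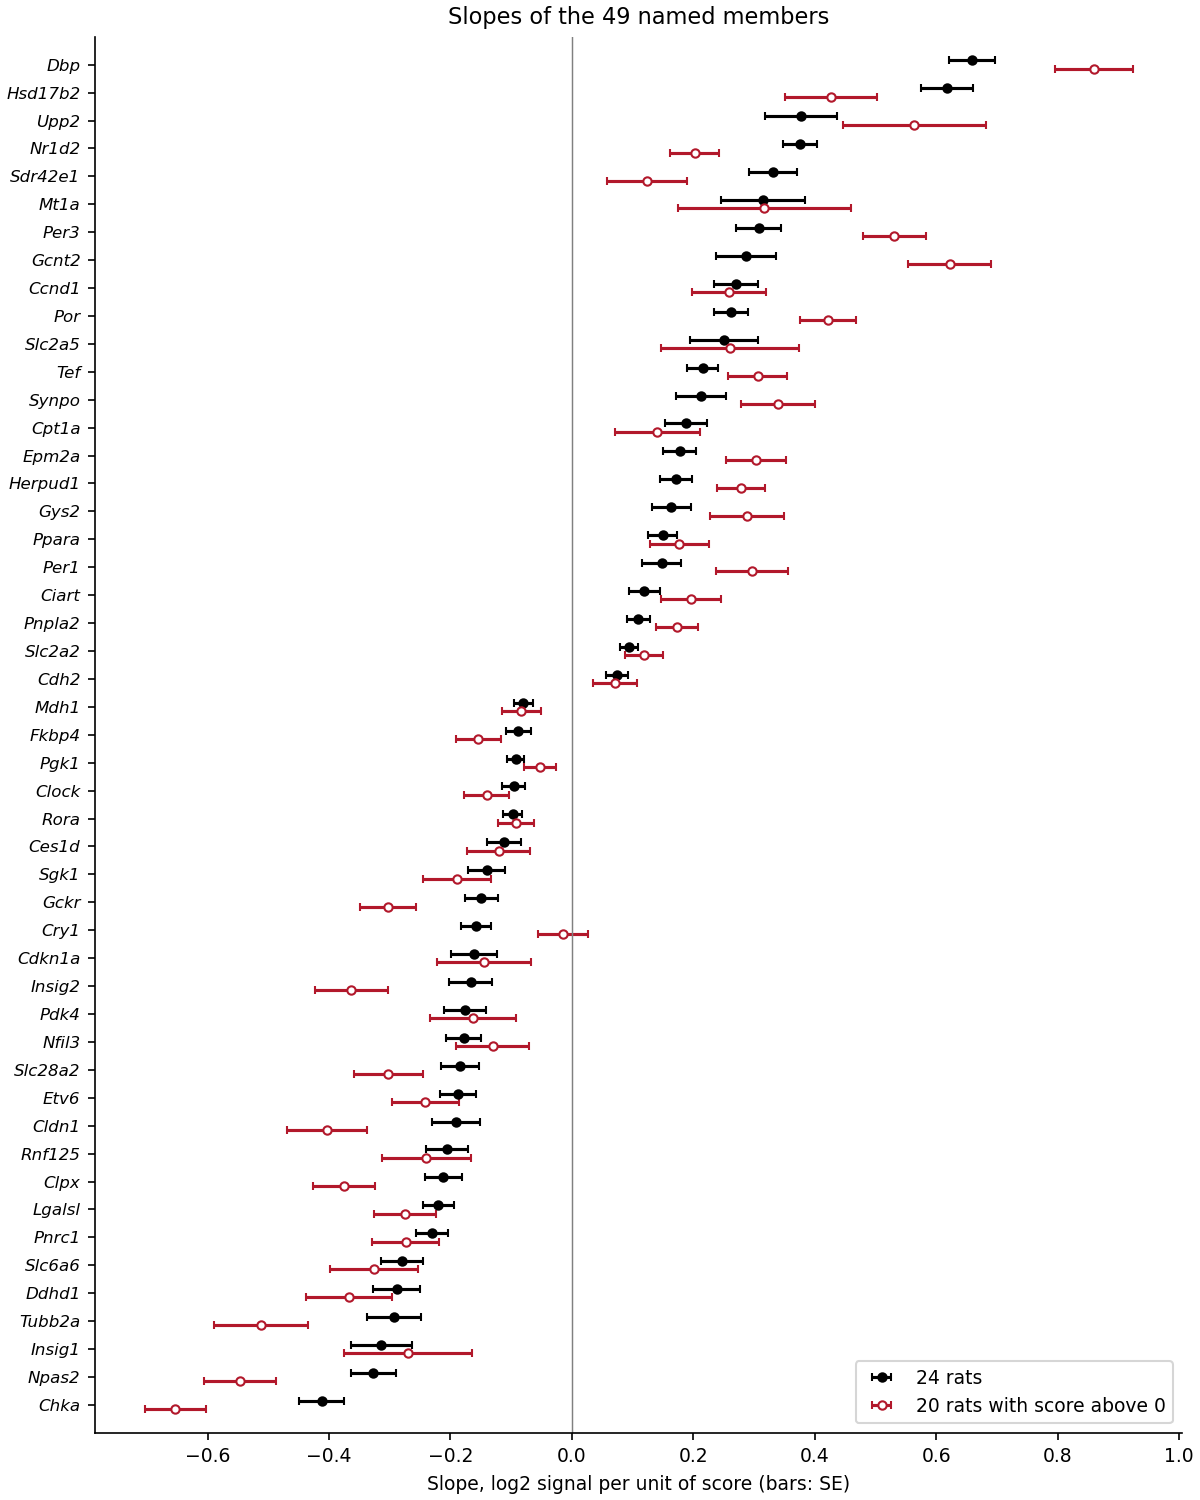
Slopes (log2 signal per unit of score, x axis) of 49 named transcripts of the selection, with bars for SE, in all 24 rats (filled black) and in the 20 rats with scores above 0 (open red). Dbp and Chka are at the top and bottom, and the open point of Cry1 lies at 0.

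The metabolic lists are given by their counts, beside 1.05% of all transcripts selected. Of 17 fasting genes Cpt1a rose and Pdk4, which blocks pyruvate oxidation, fell (−0.18 ± 0.04), with a list median of 0.01. In a list of 18 genes drawn up for lipogenesis and the fed state, only Pnpla2 rose (0.11 ± 0.02 and 0.12 in 2 probe sets) and none fell, with a median of 0.04. Pnpla2 is a triglyceride lipase gene, which breaks fat down and is not lipogenic. The other 17 genes of that list were not selected. Among 17 genes of glucose and glycogen handling Slc2a2 and Gys2 rose and Gckr fell (median −0.002). Gckr, the inhibitor of glucokinase, had a slope of −0.15 ± 0.03, and lay at 12.40, 14.29 and 14.71 (lowest, median, highest) in OE, 13.29, 14.20 and 15.20 in OC, 14.34, 14.69 and 15.11 in LE, and 13.54, 14.43 and 15.18 in LC. The 2 lowest rats were the 2 OE rats with the highest scores, and the 4 lean rats with low scores were at 14.86 to 15.18. Of 11 nuclear receptor and drug metabolism genes Por and Ppara, the fatty acid receptor (0.15 ± 0.02), rose and none fell (median 0.001). No gene of 18 in urea and amino acid metabolism was selected (median −0.03).

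Lists of genes that respond to hormones, heat or handling were also counted, since the clock shares targets with them. Of 18 glucocorticoid responsive genes Mt1a and Per1 rose and Cdkn1a and the kinase gene Sgk1 (−0.14 ± 0.03) fell (median 0.01). Of 21 heat shock, co-chaperone and cold inducible genes only Fkbp4, a cochaperone of steroid receptors, was selected (−0.09 ± 0.02, list median 0.005), and none of 20 immediate early genes was (median −0.01). In the 20 rats with scores above 0, however, the immediate early gene Zfp36 passed, with a slope of 0.31 (adjusted p = 0.0118, limma). Of the glucocorticoid list, Per1 and Nfkbia (0.20, adjusted p = 0.0293, limma) rose in those 20 rats and none fell. Zfp36 and Nfkbia were named after their values were seen. No marker was selected among 12 of red cells, 11 of stellate cells, 11 of macrophages, 8 of endothelium, 6 of bile duct cells and 9 of leukocytes, nor among 11 pericentral and 10 periportal genes, and with 1.05% of all transcripts selected, lists of this size would seldom hold one. The median slopes of these 8 lists lay between −0.03 and 0.02. In whole liver RNA, fewer cells of a type and less RNA per cell cannot be told apart.

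Whether the slopes differed by genotype was not used in the selection. No transcript of the 23186 passed for a difference between obese and lean rats (percentage called 0.0, lowest adjusted p = 0.0730, limma), while 1693 had an unadjusted p under 0.05. Among the 244, 46 had an unadjusted p under 0.05. This share is not comparable with that of all transcripts, since the selected ones had a small residual spread by choice. The lowest adjusted p among the 244 was 0.113 (limma), for Gckr. Its slope was −0.37 ± 0.05 in obese and −0.10 ± 0.02 in lean rats, with a difference of −0.26 ± 0.05. Npas2 had −0.59 ± 0.07 in obese and −0.27 ± 0.03 in lean rats (difference −0.32 ± 0.08, adjusted p = 0.220), and Chka −0.67 ± 0.06 in obese and −0.36 ± 0.03 in lean rats (difference −0.32 ± 0.08, adjusted p = 0.248). Slopes were steeper in obese than in lean rats for 141 of the 244, and 6 had opposite signs. Like signs were largely set by the selection, which used the slope over both genotypes. Neither count was made over all transcripts, so neither is read as a trait of the 244. The scores of obese rats lay within 1.73 to 8.49 and those of lean rats within −3.38 to 9.36, so that the slopes of both genotypes were read over different ranges. Without the 4 lean rats 4 transcripts passed this test, none of them among the 244.

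Obese and lean rats share no array, and the selection was repeated in each genotype alone. Both sets of rats also took part in the selection above. A selection in the 12 lean rats alone gave 131 transcripts (0.565% of those tested), of which 115 had the same sign in the 12 obese rats and 18 (13.7%) passed there as well. In the obese rats alone 41 transcripts passed (0.177%), of which 35 had the same sign in the lean rats and the same 18 (43.9%) passed there. The slope of Dbp was 0.83 ± 0.05 in obese and 0.62 ± 0.04 in lean rats, and that of Per3 0.49 ± 0.06 in obese and 0.27 ± 0.04 in lean rats. For Nr1d2 it was 0.24 ± 0.04 in obese and 0.40 ± 0.03 in lean rats. Slc2a5 had a slope of 0.00 ± 0.10 in obese rats, in which it lay at 12.15 to 14.99 in OE and 13.49 to 14.70 in OC, and 0.30 ± 0.06 in lean rats, with 9.88 to 14.28 in LE and 10.60 to 14.83 in LC (difference −0.30 ± 0.14, adjusted p = 0.650, limma).

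**Figure D5:**
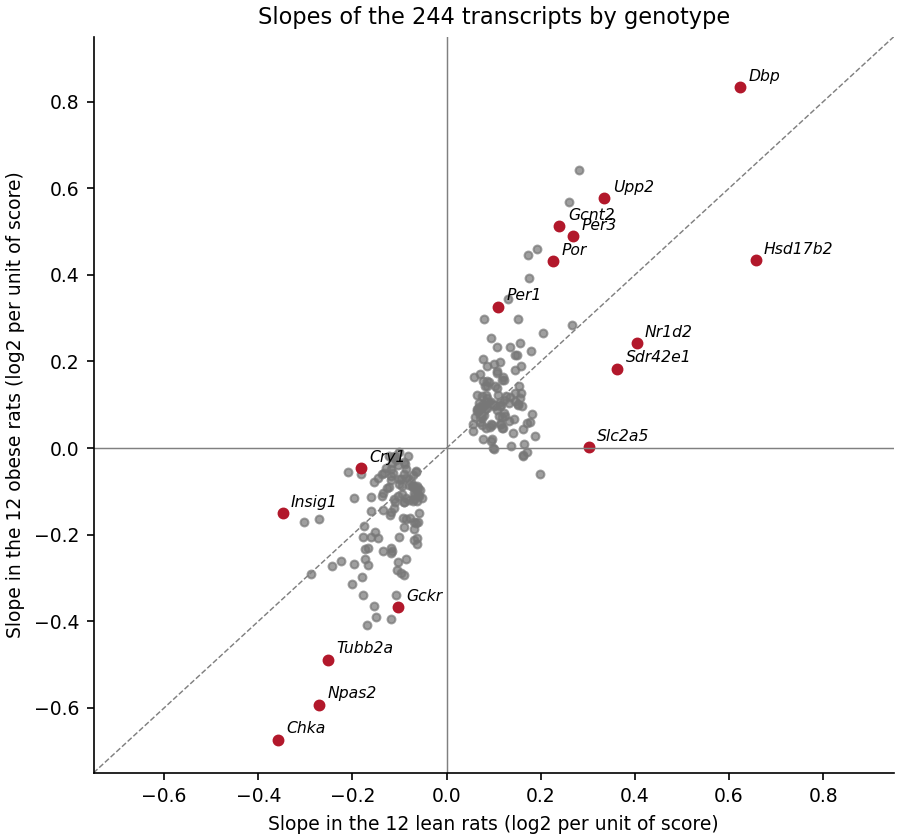
Slopes of the 244 selected transcripts in the 12 obese rats (y axis) and in the 12 lean rats (x axis), in log2 signal per unit of score, with 16 genes named in red and a dashed line of equal slopes. Opposite signs are seen for 6 transcripts. Chka, Npas2, Dbp and Per3 are steeper in obese rats, whereas Hsd17b2, Nr1d2, Slc2a5 and Insig1 are steeper in lean rats.

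For diet, 1 transcript passed for a difference between the slopes under ecdysterone and control diet (0.00431% of those tested) and it was not among the 244, of which 20 had an unadjusted p under 0.05, against 1251 of all transcripts, and the lowest adjusted p was 0.658 (limma). The diet effects themselves, read at equal score with the score as a covariate, gave no transcript in lean rats (LE vs. LC, 0.0%, limma), where the adjusted p was at least 0.648 over all transcripts, and none in obese rats (OE vs. OC, 0.0%), where it was at least 0.899. In lean rats 832 transcripts had an unadjusted p under 0.05 and in obese rats 1252, with 19 of the 244 in each. The same contrasts without the score as a covariate also gave no transcript. A bend in the relation with the score was found for 1 transcript (0.00431%), again outside the 244, and an unadjusted p under 0.05 was found for 43 of the 244 and for 1397 of all 23186. In each of these tests the share of the 244 is not comparable with that of all, since the selected transcripts had a small residual spread by choice. Gcnt2 came closest, with a squared term of 0.07 ± 0.01 (adjusted p = 0.0726, limma).

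At equal score, 682 transcripts (2.94%) differed between OC and LC in the limma fit, 378 higher and 304 (1.31%) lower in OC, and 29 of the 244 were among them (11.9%). The 2 shares are not comparable, since the selected transcripts had a small residual spread by choice and 231 of them were bright, and among transcripts above the median signal the share was 5.18%. Of the 29, 11 were higher and 18 lower in OC, and 10 also passed in a fit without the score as a covariate, in which 600 of all transcripts passed. Without the 4 lean rats 2.20% of all transcripts passed, and so did 26 of the 244, of which 17 were among the 29. These shares are not comparable either, for the same reasons.

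The smallest p-values among the 29 belonged to Ces1d, a carboxylesterase of lipid droplets, Cdh2 (N-cadherin), Pgk1, Ccnd1 and Mdh1. Ces1d lay at 9.14, 9.39 and 9.88 (lowest, median, highest) in OC and at 10.69, 11.09 and 12.22 in LC, without overlap, and differed at equal score by −1.74 ± 0.25 (log2, OC minus LC, adjusted p = 6.33e-05, limma). Cdh2 was at 11.32, 11.99 and 12.27 in OC and 12.40, 12.99 and 13.46 in LC, also without overlap (−1.06 ± 0.16, adjusted p = 0.000151, limma). Ccnd1 was at 8.28, 9.55 and 10.08 in OC and 9.21, 11.59 and 13.23 in LC, with a difference at equal score of −1.98 ± 0.33 (adjusted p = 0.000430, limma). The glycolytic enzyme gene Pgk1 was at 14.50, 14.61 and 14.87 in OC and 13.43, 13.56 and 14.79 in LC (0.81 ± 0.13, adjusted p = 0.000178, limma). Mdh1, malate dehydrogenase of the cytosol, was at 14.36, 14.96 and 15.37 in OC and 13.60, 14.06 and 14.67 in LC (0.85 ± 0.14, adjusted p = 0.000443, limma). The ranges of Ccnd1, Pgk1 and Mdh1 overlapped. Without the 4 lean rats the differences were −1.88 ± 0.30 for Ces1d, −1.02 ± 0.21 for Cdh2, −2.13 ± 0.35 for Ccnd1, 1.02 ± 0.15 for Pgk1 and 0.81 ± 0.18 for Mdh1, all past the threshold.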

How the data were processed

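Liver RNA of 24 rats was measured on 1-colour Clariom S rat arrays. The authors processed the arrays with SST-RMA, which corrects background, normalises and summarises probes (Affymetrix Expression Console 1.4 per the submitters' processing notes) and deposited log2 signals of 23188 transcripts. A second deposited table of log2 values differed by at most 0.005. Group averages, log ratios, fold changes and p-values of the authors' own comparisons, in the same table, were not used. Raw intensities were not used here, so background correction could not be repeated, and slide and scan are not given in the sources used here. No column of per-sample values was left unmapped (0).

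Signals of 23186 transcripts (without Nr1d1 and Arntl) were fitted with limma 3.58.1 (R 4.3.3, lmFit and eBayes with defaults, prior df 8.82, residual df 19) on the 4 groups and the score. Slope differences, a squared score term and group contrasts at equal score were tested in separate limma fits, and p-values were adjusted by Benjamini-Hochberg. The fit was also run on simulated signals with known straight-line slopes and noise independent between arrays, so likeness of neighbouring arrays was not covered. Symbols are those of the table (22900 transcripts), of which 27 were spreadsheet dates, 23 restored through their accession. Where a gene had several probe sets, the brightest was used.

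The selection rule, the gene lists and the tests were chosen with earlier results of these data known. Named were all measured genes of 4 clock lists, the 12 steepest rising and 12 steepest falling other genes, up to 4 selected genes per other list, the transcripts next to the threshold, and up to 5 selected genes with the smallest p in each other test. Of 24 lists, each is described by its counts, and 1 gene of the clock lists is not reported here. Nothing in the labels says more of separate litters, so p-values measure the spread between single rats. Alternatives were other scalings, signal filters, variance moderation, array weights, scores, group terms, subsets of rats and leaving out each rat. Added after seeing the data were a fit without the 4 rats of score below 0 and neighbouring arrays as a random block.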

Additional observations from a re-analysis of the deposited data

Results flagged for a closer look

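In groups of 6 rats, a lowest or highest rat was flagged when its gap to the next exceeded Dixon's critical share of the range, which chance gives in about 1 of 20 groups, and 6 of 260 checks were flagged. Cry2 was 8.34 in rat OE 22 (next 7.87) and 8.23 in rat OC 14 (next 7.89). Ccnd1 was 8.78 in rat LE 11, one of the 4 lean rats with a score below 0 (next 11.15). Slc6a6 was 6.50 in rat OE 24 (next 7.68). Rat OC 15, with the highest score of OC, had the lowest Clpx of its group at 13.65 (next 15.04) and the highest Pnpla2 at 11.49 (next 10.86).

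The slope of Pnpla3, a triglyceride lipase of lipid droplets, differed between the ecdysterone and the control diet by 0.54 ± 0.08 (adjusted p = 0.0130, limma), with 0.34 per unit of score in LE and −0.34 in LC, against −0.08 in OE and −0.03 in OC. The signal was 15.80 to 17.60 in OE, 16.36 to 17.53 in OC, 12.65 to 16.10 in LE and 11.25 to 15.85 in LC. Without the 4 lean rats with low scores the difference was 0.17 ± 0.14 (adjusted p = 0.987).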

How the results depend on the processing

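The 244 transcripts numbered 189 to 305 when the table, scaling, filter, variance moderation, weights or group terms were changed one at a time, apart from 352 above the median signal and 331 without group terms. They numbered 159 with Nr1d1 alone as score (149 shared), 148 without the 2 most extreme rats, LC 2 and LE 11 (119 shared), 41 in obese rats (28 shared), 131 in lean rats (118 shared), and 74 without the 4 lean rats of score below 0 (49 shared). Leaving out single rats gave 172 to 265. The difference by genotype, 0 in the fit as reported, gave 6 under quantile normalisation, 7 with trend and robust moderation, 2 with array weights, 2 with Dbp minus Npas2 as score, 4 without the 4 lean rats, and 0 to 11 without single rats. The difference by diet, 1 transcript, gave 0 with trend and robust moderation, Dbp minus Npas2, ranks, without the 2 extreme rats or the 4 lean rats, and 0 to 2 without single rats. The squared term, 1 transcript, gave 0 under median centring, ordinary least squares, Dbp minus Npas2, without the 2 or the 4 rats, 2 with array weights, and 0 to 2 without single rats. LE vs. LC at equal score gave 1 without the 4 lean rats and 0 in each fit without a single rat, and OE vs. OC gave 0 in each. OC vs. LC gave 509 to 800 over all alternatives and 517 to 762 without single rats.

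The score of OC minus LC, 0.69, was −0.0779 with Arntl alone, and −0.72 to 1.82 without single rats, of which LC 1 and LC 2 turned the sign (−0.42 and −0.72). It was −2.46 without the 4 lean rats, but these were left out for their low score, which by itself raises the lean mean, so that this value tests nothing. LE minus LC was −2.72 to −0.18 and OE minus OC 0.90 to 2.04. Slopes that changed sign were of unselected genes near 0. Btrc was 0.009 without the 2 extreme rats, 0.0341 in obese rats, 0.0178 without the 4 lean rats and −0.0211 to 0.0029 without single rats. Csnk1d was 0.0122 in obese rats. Bhlhe41 was −0.003 in lean rats and −0.0008 to 0.0196 without single rats, and Fbxl21 was −0.0407 to 0.0013 without single rats. Without the 4 lean rats Arntl2 was −0.0002 and Bhlhe40 0.0091. The causes were not tested. Named selected genes kept their sign in every alternative run, but of 49, 31 no longer passed in obese rats, 23 without the 4 lean rats, 13 in lean rats, 12 with Nr1d1 alone, 10 by ordinary least squares, 10 without the 2 extreme rats and at most 8 in any other alternative. Each gene of the score has 1 probe set, so their mean over probe sets is the same score. No paired analysis was possible because the labels give the groups no shared replicate numbers. Few rats at low scores, all lean, limit the precision there.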

Other observations

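Neighbouring array numbers had like scores. The 12 pairs of neighbours (1 and 2, 3 and 4, and so on) differed by 0.16 to 1.99 units (median 1.10), against a median of 3.64 and a maximum of 12.74 over the 48 other pairs of rats within a group. The lean rats of score below 0 were such pairs, LC 1 and 2 and LE 11 and 12. Whether such pairs shared a cage or a time of killing is not given in the sources used here. With these pairs as a random block the residual correlation was 0.0065 and 239 transcripts passed for the slope.

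Without the 4 lean rats of score below 0, some slopes differed between obese and lean rats, whereas none passed in all 24 rats. The differences were −0.97 ± 0.16 for Rgs16, −0.88 ± 0.15 for Elovl6, −0.96 ± 0.16 for the Elovl6-like LOC102549542 and 0.54 ± 0.08 for Apol9a. Their adjusted p-values were 0.0282, 0.0358, 0.0316 and 0.0163 (limma). Pnpla3 was higher in LE than in LC at equal score by 2.86 ± 0.43 without those 4 rats (adjusted p = 0.0188, limma). The rats left out went the other way, at 15.85 and 15.25 in LC 1 and 2 and 12.65 and 12.97 in LE 11 and 12. With all 24 rats no transcript passed for LE vs. LC. None of these transcripts, Pnpla3 included, was among the 244, and all were named after their values were seen.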
